A study of Mus musculus with 4 samples.

Results

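Among 9 genes that build adherens and tight junctions between endothelial cells, Jam2 and Cldn5 differed most between groups of mouse lung endothelial cells. In cells with a genetic record of aSMA (Acta2) locus activity, Jam2 was 1.90-fold higher and Cldn5 1.79-fold lower than in cells without that record. In counts scaled to library size, 1 member was higher and 4 were lower without overlap of the groups, beside 38.1% of all genes tested. Jam2 and Cldn5 were among these. Neither difference passed edgeR's test over all genes, while DESeq2 called both, beside 2.44% of the genes it tested. The other 7 genes, Cdh5, Pecam1, Ocln, Tjp1, Esam, Jam3 and F11r, differed by 1.33-fold or less. The 9 genes were taken by symbol from a deposited table of 17915 genes, and all 9 passed the filter on low counts that left 13177 genes for testing. They were listed for their place at the junction and not by their values, but with earlier results of these data known.

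Endothelial cells of vessels are joined side by side by adherens junctions, in which VE-cadherin (Cdh5) binds its like on the neighbouring cell and holds catenins and actin on the inside, and by tight junctions, in which claudins and occludin close the gap between the cells. Immunoglobulin-type adhesion proteins such as PECAM-1, ESAM and the junctional adhesion molecules lie along the same border, and ZO-1 (Tjp1) ties several of these proteins to the cytoskeleton. In the lung these contacts keep plasma out of the airspace and give way in part when leukocytes cross.

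All cells came from lungs of mice of the genotype Cdh5-CreER;aSMA-LSL-Dre;NR1, in which a tamoxifen-inducible Cre driven by Cdh5 marks endothelial cells with ZsGreen and a Dre recombinase read from the aSMA locus turns the mark to tdTomato after even brief activity. Every mouse received tamoxifen 5 times and was studied 6 weeks after transverse aortic constriction (TAC), a narrowing of the aorta that loads the left heart. The groups thus share alleles, tamoxifen and TAC and differ in the colour of the sorted cells: 2 tdTomato+ and 2 ZsGreen+ libraries, each labelled a biological replicate. The labels name no unconstricted group, and age, sex and whether same-numbered libraries share mice are not given in them, and a p-value here reflects only how far these libraries spread, which may be technical. Because the driver of the mark is Cdh5, the sort itself rests on activity of one of the 9 genes, and whether reads of the Cdh5-CreER allele count towards Cdh5 was not tested.

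The libraries held 17050673 to 18574737 counts. Acta2, the gene whose locus the mark records, stood at 304 and 527 CPM (counts scaled to library size with edgeR's TMM factors) in tdTomato+ libraries and at 87.6 and 82.9 CPM in ZsGreen+ libraries. The endothelial label was checked on 11 further endothelial markers, which summed to 9753 and 9819 CPM in tdTomato+ and 12481 and 9801 CPM in ZsGreen+ libraries, with none at 0. In the same libraries 10 leukocyte markers summed to 4316 and 2196 CPM in tdTomato+ and 2480 and 534 CPM in ZsGreen+ cells. The purity of the sort was not tested. edgeR's quasi-likelihood test with Benjamini-Hochberg adjustment called 40 of the 13177 genes at an adjusted p under 0.05, a share of 0.304%, with 22 higher in tdTomato+ cells (0.167%) and 18 lower (0.137%). Since RNA is measured in bulk, fewer cells with a transcript and less transcript per cell cannot be told apart.

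Per unit of gene length, Esam was the most abundant of the 9 in every library and Jam3 the least. In TPM, the authors' level scaled for gene length and depth, the order of the mean over 4 libraries ran Esam, Pecam1, Cldn5, Cdh5, F11r, Jam2, Tjp1, Ocln, Jam3. Esam spanned 1210 to 1503 TPM and lay above every other member in all libraries. Pecam1 (900 to 986 TPM), Cldn5 (539 to 1154 TPM) and Cdh5 (453 to 839 TPM) followed; the range of Cldn5 overlapped that of each of the others, while Pecam1 lay above Cdh5. F11r spanned 264 to 369 TPM, below them and above Jam2 at 49.1 to 120 TPM. Tjp1 (26.4 to 47.7 TPM), Ocln (16.7 to 25.3 TPM) and Jam3 (8.09 to 11.5 TPM) followed without overlap. Summed over the 9 genes the level was 4055 and 3983 TPM in tdTomato+ libraries and 4131 and 4736 TPM in ZsGreen+ libraries.

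**Figure D1:**
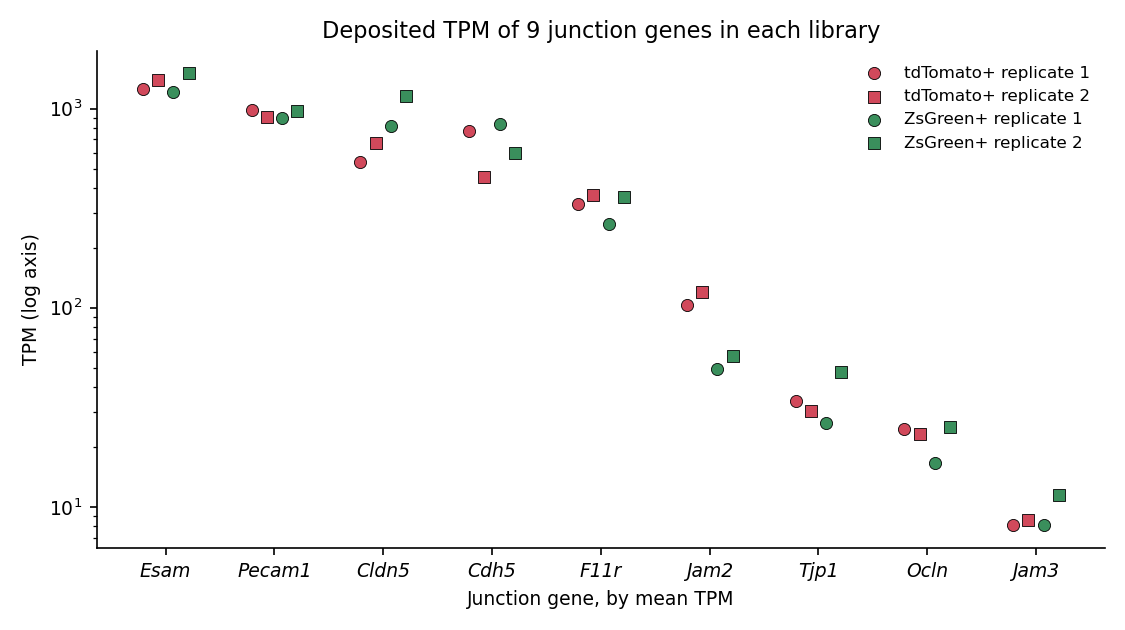
The vertical log axis gives the deposited TPM of each junction gene and the horizontal axis the genes by falling mean; red marks are tdTomato+ and green marks ZsGreen+ libraries, circles replicate 1 and squares replicate 2. Both red marks lie above both green marks for Jam2 and below them for Cldn5, while the marks of the groups overlap for the other 7 genes.

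Cdh5 encodes VE-cadherin, the adhesion receptor of the endothelial adherens junction. It stood at 1802 and 1112 CPM in tdTomato+ replicates 1 and 2 and at 2421 and 1468 CPM in ZsGreen+ replicates 1 and 2. The groups overlapped, and within each group replicate 1 was higher than replicate 2, by 1.62-fold in tdTomato+ and by 1.65-fold in ZsGreen+ cells. The log2 fold change of tdTomato+ over ZsGreen+ was -0.42 (SE 0.33, 95% interval -1.19 to 0.36, edgeR adjusted p = 0.833). It moved with the library left out, from -0.81 without tdTomato+ replicate 1 and -0.74 without ZsGreen+ replicate 2 to -0.085 without tdTomato+ replicate 2 and -0.0075 without ZsGreen+ replicate 1. Pecam1 was also higher in replicate 1 of both groups, by only 1.03-fold and 1.08-fold. Cldn5 was 1.31-fold and 1.19-fold higher in replicate 2 of both groups. The Cdh5 gene (NCBI Gene 12562) spans chr8:104101613-104144504 on the plus strand of GRCm38.

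**Figure D2:**
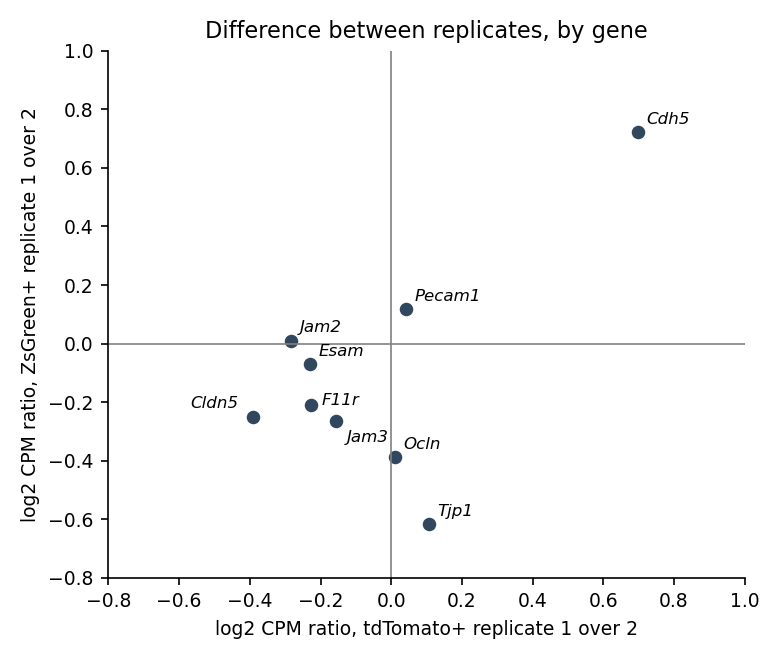
Each point is a junction gene; the horizontal axis gives the log2 ratio of CPM in tdTomato+ replicate 1 over 2 and the vertical axis the same in ZsGreen+ libraries. Cdh5 lies at the upper right, 1.62-fold and 1.65-fold higher in replicate 1, and Tjp1 at the bottom, 1.53-fold higher in replicate 2 of the ZsGreen+ group alone.

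Pecam1 encodes PECAM-1 or CD31, an immunoglobulin-type receptor of the lateral border that is also carried by platelets and many leukocytes. Its levels were 1861 and 1808 CPM in tdTomato+ and 2103 and 1939 CPM in ZsGreen+ libraries. Both tdTomato+ libraries lay below both ZsGreen+ libraries on this scale, but in TPM the groups overlapped, at 986 and 912 against 900 and 977. The log2 fold change was -0.14 (SE 0.19, 95% interval -0.59 to 0.31, edgeR adjusted p = 0.915), and on log2(TPM + 1) it was 0.016. Pecam1 (NCBI Gene 18613) spans chr11:106654213-106715281 on the minus strand. Summed over 10 leukocyte markers the level was 4316 and 2196 CPM in tdTomato+ and 2480 and 534 CPM in ZsGreen+ libraries, and over 5 platelet markers 24.5 and 20.6 against 35.9 and 17.4 CPM, none of them at 0 in any library. Their part in the level of Pecam1 was not tested.

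Cldn5 encodes claudin-5, the main claudin of endothelial tight junctions and a barrier to small solutes. Its levels were 406 and 533 CPM in the tdTomato+ libraries, against 769 and 915 CPM in the ZsGreen+ libraries. Both tdTomato+ libraries lay below both ZsGreen+ libraries in CPM, in the authors' normalized counts, in FPKM and in TPM. As mean ± SD the levels were 470 ± 89.4 against 842 ± 103 CPM (n = 2 each). The log2 fold change was -0.84 (SE 0.22, 95% interval -1.37 to -0.32, edgeR adjusted p = 0.272). Over 16 alternatives the log2 fold change stayed between -1.03 and -0.66. Among 13177 genes it ranked 338th by p. In the deposited TPM, limma gave a log2 fold change of -0.69 (adjusted p = 0.353) on a scale where the median of all genes was 0.12.

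Cldn5 (NCBI Gene 12741) is a short gene at chr16:18776847-18778262 on the plus strand of GRCm38, and the deposited table lists it on an alternate sequence, so its span here is that of RefSeq. The windows of 250 bases before to 50 bases after the start are shown for Cldn5, the member with the lowest log2 fold change, and for F11r, the member with the smallest difference, at chr16:18776597-18776896 and chr1:171437311-171437610 (RefSeq, GRCm38.p6, both plus strand, 5′ to 3′). Capitals mark 3 motifs on either strand: GGAA, the core bound by ETS factors, CCAAT, and CAGGTG, an E-box that factors of the Snail family can bind.
Cldn5: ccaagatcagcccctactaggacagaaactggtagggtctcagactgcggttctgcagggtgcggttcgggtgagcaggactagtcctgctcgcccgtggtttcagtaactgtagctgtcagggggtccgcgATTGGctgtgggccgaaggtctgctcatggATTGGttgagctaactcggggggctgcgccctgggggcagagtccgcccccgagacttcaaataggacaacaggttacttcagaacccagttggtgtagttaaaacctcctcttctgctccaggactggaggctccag
F11r: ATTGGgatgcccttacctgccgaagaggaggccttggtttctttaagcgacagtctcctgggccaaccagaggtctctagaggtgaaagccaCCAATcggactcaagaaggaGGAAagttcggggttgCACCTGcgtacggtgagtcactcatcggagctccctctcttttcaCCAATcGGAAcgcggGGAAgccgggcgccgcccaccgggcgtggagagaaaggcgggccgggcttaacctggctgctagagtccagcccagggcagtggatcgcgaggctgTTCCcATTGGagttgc
The Cldn5 window held CCAAT 2 times, both on the opposite strand, and neither GGAA nor CAGGTG. The F11r window held CCAAT 4 times, GGAA 4 times and CAGGTG 1 time, and F11r's CCAAT and GGAA matches did not overlap each other. GGAA was in 96% of the 32851 windows of this length listed by RefSeq, CCAAT in 37.4% and CAGGTG in 20.2%. These are letters in a window and not binding sites, and no count was tested against the RNA levels. Windows of 4 of the 9 members were matched, the others being Ocln and Tjp1. CAGGTG was in both Ocln windows and not in that of Tjp1. The Ocln windows overlap, and the match at base 258 of window 1 is the same site as that at base 38 of window 2.

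Ocln encodes occludin, a tight junction membrane protein that epithelia also carry. It stood at 48.4 and 48.1 CPM in tdTomato+ and at 40.1 and 52.4 CPM in ZsGreen+ libraries, so the tdTomato+ libraries lay between the ZsGreen+ ones. The log2 fold change was 0.06 (SE 0.20, 95% interval -0.42 to 0.54, edgeR adjusted p = 0.975). The gene (NCBI Gene 18260) spans chr13:100496504-100552718 on the minus strand. Tjp1, which encodes the scaffold ZO-1, stood at 141 and 131 CPM against 135 and 207 CPM, with ZsGreen+ replicate 2 above the other 3 libraries. Its log2 fold change was -0.33 (SE 0.23, 95% interval -0.88 to 0.23, edgeR adjusted p = 0.815) and 0.012 without ZsGreen+ replicate 2. Tjp1 (NCBI Gene 21872) spans chr7:65296165-65527850 on the minus strand.

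Jam2 encodes JAM-B, a junctional adhesion molecule of endothelium that binds JAM-C (Jam3) and leukocyte integrins. It stood at 295 and 359 CPM in the tdTomato+ libraries, against 173 and 172 CPM in the ZsGreen+ libraries. Both tdTomato+ libraries were higher, and the groups did not overlap on any of the 5 scales examined, namely CPM with and without TMM factors, the authors' normalized counts, FPKM and TPM. As mean ± SD the levels were 327 ± 45.2 against 172 ± 0.795 CPM (n = 2 each). The log2 fold change was 0.93 (SE 0.19, 95% interval 0.47 to 1.38, edgeR adjusted p = 0.161). It was the member with the smallest p and ranked 160th of 13177 genes. Over 16 alternatives the log2 fold change lay between 0.80 and 1.06. Per length the level was 104 and 120 TPM against 49.1 and 57.5 TPM, and limma on log2(TPM + 1) gave 1.06 (adjusted p = 0.103). Jam2 (NCBI Gene 67374) spans chr16:84774123-84826380 on the plus strand, on the same chromosome as Cldn5.

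Jam3, which encodes JAM-C, was the rarest member, at 8.85 and 9.86 CPM in tdTomato+ and 11.1 and 13.3 CPM in ZsGreen+ libraries, from 161 to 243 counts. The groups did not overlap in CPM but did in TPM, at 8.09 and 8.56 against 8.14 and 11.5. The log2 fold change was -0.38 (SE 0.28, 95% interval -1.05 to 0.29, edgeR adjusted p = 0.826). Jam3 (NCBI Gene 83964, chr9:27097384-27155421, minus strand) is the only member with an exon that another annotated gene overlaps, Gm48796 on the opposite strand; the sources used here do not say whether counting used strand.

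F11r encodes JAM-A, which platelets and epithelia carry as well. It stood at 468 and 547 CPM in tdTomato+ and at 460 and 533 CPM in ZsGreen+ libraries, the smallest difference of the 9, with a log2 fold change of 0.03 (SE 0.20, 95% interval -0.44 to 0.50, edgeR adjusted p = 0.986). F11r (NCBI Gene 16456) spans chr1:171437561-171464593 on the plus strand. Esam, an adhesion molecule of endothelial tight junctions and platelets, stood at 1285 and 1507 CPM against 1539 and 1615 CPM. Its groups did not overlap on this scale but did in TPM, at 1256 and 1398 against 1210 and 1503, and its log2 fold change was -0.18 (SE 0.20, 95% interval -0.64 to 0.29, edgeR adjusted p = 0.893). Esam (NCBI Gene 69524) lies at chr9:37528089-37538319 on the plus strand.

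As shares within this family, which carry the difference in Jam2 itself and were not tested, Jam2 made up 6.11% and 6.34% of the summed TPM of Jam2, Jam3, F11r and Esam in tdTomato+ libraries and 3.21% and 2.98% in ZsGreen+ libraries. Esam made up 73.9% and 73.7% against 79% and 77.8%, and F11r 19.5% and 19.5% against 17.2% and 18.6%. The ratio of Jam2 to Jam3, the genes of binding partners, was 12.8 and 14 against 6.03 and 5.01 in TPM. The binding itself was not measured.

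**Figure D3:**
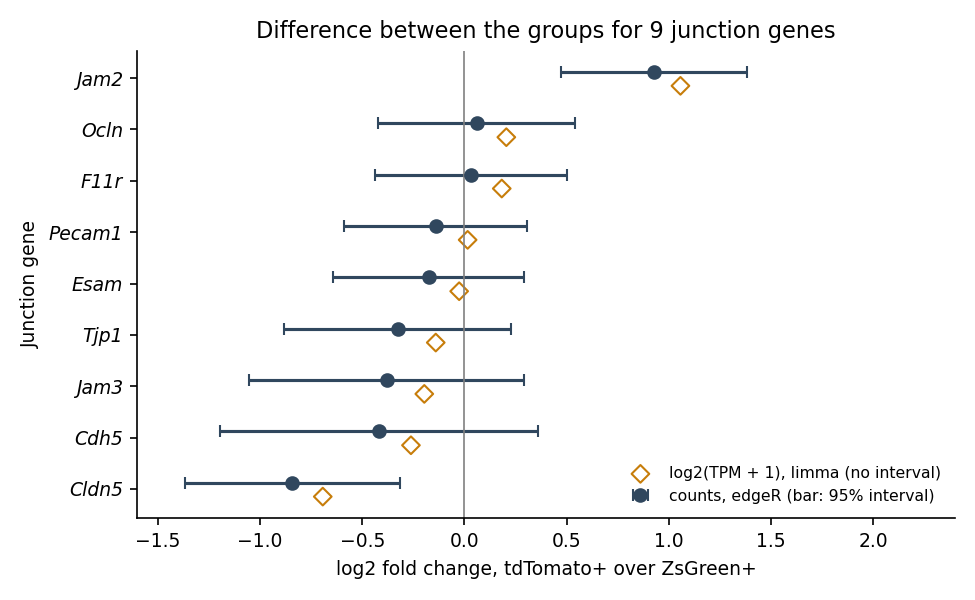
The horizontal axis gives the log2 fold change of tdTomato+ over ZsGreen+ libraries and the vertical axis the 9 junction genes; filled points with 95% intervals come from counts and open diamonds from log2(TPM + 1). The intervals of Jam2 and Cldn5 exclude 0 before adjustment over all genes and those of the other 7 genes include it.

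Over the 9 members edgeR called 0 at an adjusted p under 0.05, beside 0.304% of all genes tested. At an unadjusted p under 0.05 there were 2, Jam2 higher and Cldn5 lower, beside 8.77% of all genes. DESeq2 called the same 2 genes, with adjusted p = 0.0019 for Jam2 and 0.0135 for Cldn5, where it called 2.44% of 13512 genes, 1.51% higher and 0.933% lower. limma on log2(TPM + 1) called 0 of the 9 beside 0.259% of 11978 genes (0.184% higher and 0.0751% lower), and 2 of the 9 without ZsGreen+ replicate 1, where it called 2.5% of 11861 genes. The CPM of the groups did not overlap for 5 members, 1 higher and 4 lower, beside 38.1% of all genes tested (19.9% higher and 18.2% lower). In TPM they did not overlap for 2, Jam2 and Cldn5, beside 36% of the 11978 genes. On that scale an unadjusted limma p under 0.05 was reached by these 2, beside 9.27% of genes. The median log2 fold change of the members was -0.18, with 3 above and 6 below 0, and that of all genes was -0.0068. The 11 other endothelial markers had a median of -0.13, and none of them was called by edgeR. With 2 against 2 libraries an exact permutation of labels cannot give a two-sided p below 0.333, so no such test is given for a single gene.

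Ratios between members within a library do not depend on library scaling. Jam2 over Pecam1 was 0.105 and 0.132 in tdTomato+ and 0.0545 and 0.0589 in ZsGreen+ libraries in TPM. Cldn5 over Pecam1 was 0.546 and 0.734 against 0.908 and 1.18. Jam2 over Cldn5 was 0.193 and 0.180 against 0.0601 and 0.0498. The groups did not overlap for any of these 3 ratios, which carry the differences in Jam2 and Cldn5 themselves and were not tested. The ratios to Cdh5 followed its replicate difference: Cldn5 over Cdh5 was 0.697 and 1.48 against 0.974 and 1.92 and overlapped between the groups, while Jam2 over Cdh5, at 0.134 and 0.265 against 0.0585 and 0.0958, did not.

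**Figure D4:**
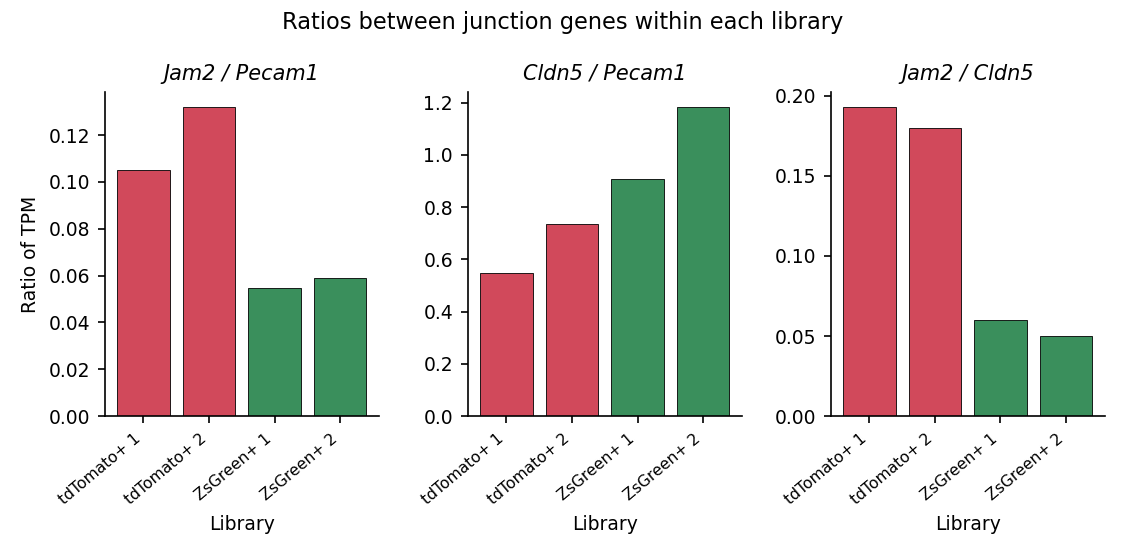
Bars give the ratio of TPM between 2 junction genes in each of the 4 libraries, red for tdTomato+ and green for ZsGreen+, on axes that start at 0. Jam2 over Pecam1 and Jam2 over Cldn5 are higher in both tdTomato+ libraries, and Cldn5 over Pecam1 is lower in both.

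The pattern of Jam2 over the 4 libraries was most like that of Kank2, a regulator of the actin cortex, Pik3c2b, a phosphoinositide kinase, and Ulk3, a protein kinase, among 10067 named genes at 5 CPM or more. The root mean square difference of log2 CPM after centring each gene was 0.0135, 0.0448 and 0.0461, over 4 libraries only. Kank2 stood at 41.1 and 49.2 CPM against 24 and 23.6 CPM. For Cdh5 the nearest were Psmc3ip, Otud3 and Akr1e1 (0.0324, 0.0329 and 0.0355), each higher in replicate 1 than in replicate 2 of both groups.

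Among genes whose proteins link cadherins to actin, Jup and Plekha7 lay farthest from equal levels, in opposite directions. Of 9 catenins and linkers tested, edgeR called 0, with 1 higher and 1 lower at an unadjusted p under 0.05, and the median log2 fold change was -0.065. Jup, which encodes plakoglobin or gamma-catenin, stood at 610 and 656 CPM in tdTomato+ libraries, against 1069 and 1112 CPM in ZsGreen+ libraries, without overlap (log2 fold change -0.79, SE 0.19, edgeR adjusted p = 0.218). Plekha7, an adherens junction protein that binds p120-catenin, was higher without overlap, at 23 and 17.2 against 7.72 and 4.93 CPM (1.67, SE 0.33, edgeR adjusted p = 0.153). Ctnna1, alpha-catenin, was at 397 and 404 against 452 and 540 CPM and Afdn, afadin, at 103 and 112 against 100 and 152 CPM. DESeq2 called Jup lower and Plekha7 higher (adjusted p = 0.00316 and 0.00196), and edgeR called Plekha7 without ZsGreen+ replicate 1 (2.03, adjusted p = 0.0344), where it called 2.21% of genes.

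T-cadherin was the one junction-related gene that edgeR called. Cdh13, which encodes this cadherin with a lipid anchor in place of a transmembrane and cytoplasmic part, rose from 130 and 104 CPM in the ZsGreen+ libraries to 344 and 376 CPM in the tdTomato+ ones (log2 fold change 1.62, SE 0.20, edgeR adjusted p = 0.0432). The call ended without tdTomato+ replicate 1 (1.68, edgeR adjusted p = 0.116), without tdTomato+ replicate 2 (1.58, 0.275) and without ZsGreen+ replicate 2 (1.46, 0.0675), while limma on log2(TPM + 1) kept it with each library left out in turn but not without the filter on low TPM (adjusted p = 0.142). Per length Cdh13 made up 16.5% and 26.1% of the summed TPM of Cdh5, Cdh13, Cdh1 and Cdh2 in tdTomato+ and 5.34% and 6.80% in ZsGreen+ libraries, and Cdh5 83.3% and 73.7% against 94.6% and 93%. These shares carry the difference in Cdh13 itself and were not tested, and the TPM of Cdh5 overlapped between the groups. Over the 9 other cadherins and nectins tested the median log2 fold change was -0.26, with 3 above and 6 below 0. edgeR called 1 of them higher and 0 lower, and at an unadjusted p under 0.05 there were 1 higher and 2 lower. The protocadherins Pcdh1 (337 and 307 against 587 and 489 CPM, log2 fold change -0.74) and Pcdh12 (33 and 26 against 44.2 and 53.4 CPM, -0.73) stood lower in both tdTomato+ libraries. Neither passed in edgeR (adjusted p = 0.275 and 0.346). DESeq2, which called 2.44% of genes, called Pcdh1 (adjusted p = 0.0187) and not Pcdh12 (0.167). Cdh1, E-cadherin of epithelia, was at 3.30 and 3.20 against 1.83 and 1.26 CPM.

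Cldn5 took most of the claudin transcripts in every library. Its share of the summed TPM of 20 claudins was 95.5% and 89.7% in tdTomato+ and 98% and 97.8% in ZsGreen+ libraries. These shares carry the difference in Cldn5 itself and also that in Cldn15, and were not tested. Cldn15 stood at 6.57 and 55.3 TPM in tdTomato+ replicates 1 and 2 and at 2.14 and 10.7 TPM in ZsGreen+ replicates 1 and 2. The lowest share, 89.7%, was in tdTomato+ replicate 2, where Cldn5 was higher (669 TPM) than in tdTomato+ replicate 1 (539 TPM). Of 20 other listed genes present in the table, 10 were tested and edgeR called 0, with 2 higher and 0 lower at an unadjusted p under 0.05, and a median log2 fold change of 0.33. Cldn15, a claudin that forms cation pores, stood at 6.71 and 59.5 CPM against 2.72 and 11.5 CPM and overlapped. Cldn12 stood at 12.5 and 11.4 against 7.84 and 7.01 CPM (0.69, SE 0.29, edgeR adjusted p = 0.57), and the epithelial claudins Cldn3 and Cldn4 were at or below 3.99 CPM. Cldn1, named after its values were seen, had 28 and 11 counts in tdTomato+ and 0 in both ZsGreen+ libraries (edgeR adjusted p = 0.233). It passed the filter on low counts only through its tdTomato+ libraries. Its levels there were 1.54 and 0.577 CPM, where 3 counts in the ZsGreen+ libraries correspond to 0.19 and 0.164 CPM, and no fold is given. Cldn11, also named after its values were seen, had 2 and 2 counts in tdTomato+ and 20 and 9 in ZsGreen+ libraries. It did not pass the filter and was not tested.

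Among 10 other tight junction membrane proteins tested edgeR called 0, with 2 higher and 0 lower at an unadjusted p under 0.05 and a median log2 fold change of 0.18. Lsr, angulin-1 of tricellular contacts, stood at 14.5 and 15.1 against 7.15 and 4.54 CPM (1.34, SE 0.33, edgeR adjusted p = 0.233), and Jaml, a leukocyte adhesion molecule, at 2.86 and 1.94 against 0.822 and 0.219 CPM. The 10 leukocyte markers given above were also higher in sum in replicate 1 of each group. All 10 had a positive log2 fold change, with a median of 0.97, beside 49.3% of all genes tested with a positive one. Their part in the level of Jaml was not tested. Igsf5 (1.81 and 4.09 against 0.759 and 2.35 CPM) and Cd99 (3.63 and 5.77 against 7.91 and 5.31 CPM), a protein of leukocyte passage, overlapped. From 66 to 125 counts, Cd99 had far higher values in TPM, 154 and 211 against 221 and 206, which overlapped too. The reason for this gap between the scales was not tested. Of 13 tight junction scaffolds tested edgeR called 0, also with 0 at an unadjusted p under 0.05 in either direction, with a median of -0.038. Magi3, a scaffold of the MAGI family, stood at 8.14 and 8.45 against 9.49 and 17.5 CPM, Magi1 at 26.3 and 30.1 against 18.9 and 26.7 CPM, and Ybx3, a ZO-1-bound regulator, at 66.3 and 111 against 85.2 and 209 CPM. DESeq2 called Lsr (adjusted p = 0.0414) and none of the scaffolds.

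Of 19 regulators of junction strength edgeR called 0, their median log2 fold change was 0.047 and, at an unadjusted p under 0.05, 2 were higher and 1 lower. Tiam1, an activator of the GTPase Rac1, stood at 17.5 and 21.6 CPM in tdTomato+ libraries, against 39.5 and 82.9 CPM in ZsGreen+ libraries (log2 fold change -1.65, SE 0.36, edgeR adjusted p = 0.18; DESeq2 adjusted p = 0.000645). Without ZsGreen+ replicate 1 edgeR called it (-2.08, adjusted p = 0.00771). The receptor phosphatase Ptprj was at 25.2 and 37.7 against 16.9 and 14.5 CPM (1.00, SE 0.27), the kinase Src at 8.25 and 10.6 against 2.97 and 4.98 CPM (1.24, SE 0.40), and Heg1, a receptor upstream of the CCM proteins, at 729 and 813 against 621 and 532 CPM (0.42, SE 0.20). Over all genes tested an unadjusted p under 0.05 was reached by 5.62% in the higher and 3.15% in the lower direction.

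**Figure D5:**
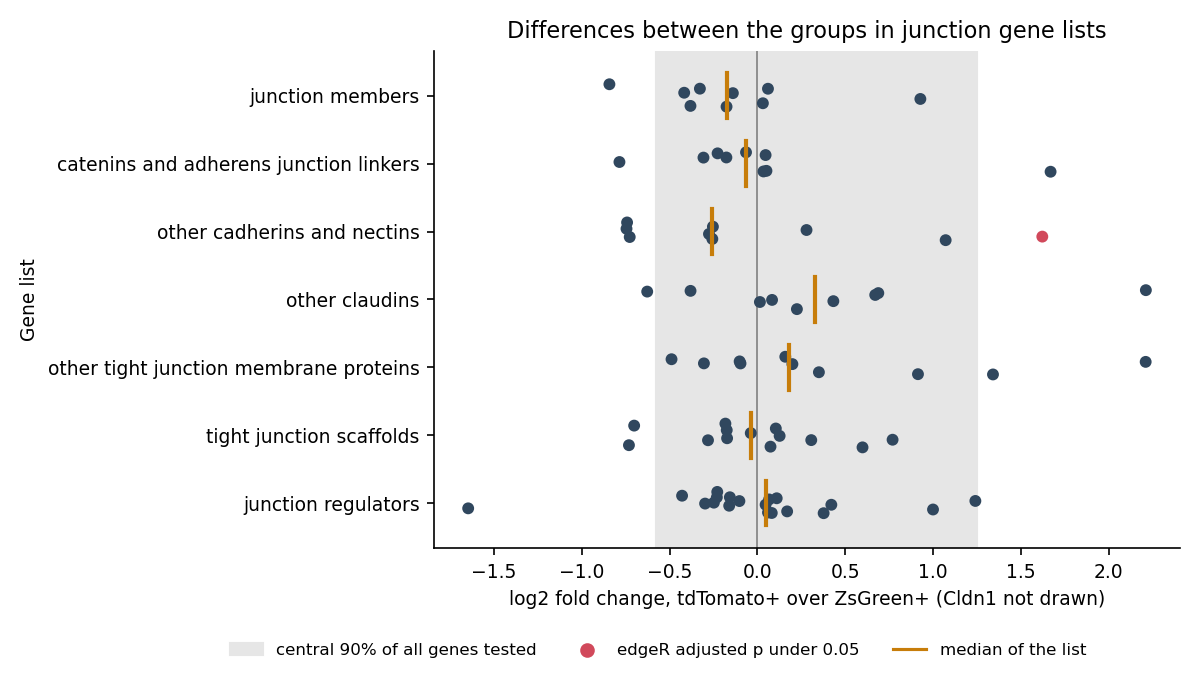
Each dot is a gene placed by its log2 fold change of tdTomato+ over ZsGreen+ libraries, the rows are the 9 members and 6 further junction lists, orange bars give list medians and the grey band spans the central 90% of all genes tested, -0.58 to 1.25. The red dot is Cdh13, the only gene drawn that edgeR called, Cldn1 is not drawn, and list medians lie between -0.26 and 0.33.

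Markers of endothelial subtypes and of other lung cells also differed between these libraries, and their part in the levels of Jam2, Cldn5 and Cdh13 was not tested. Beside the counts that follow, 19.9% of all genes tested were higher and 18.2% lower without overlap, and 0.304% were called. Summed CPM was 2657 and 3443 in tdTomato+ against 1191 and 1007 in ZsGreen+ libraries for 6 venous markers, with 4 of 6 higher without overlap and 2 called by edgeR. For 6 aerocyte markers it was 198 and 217 against 366 and 403, with 5 of 6 lower without overlap and 1 called, and for 6 general capillary markers 6808 and 7116 against 8527 and 7259, with 3 of 6 lower. For 8 lymphatic markers it was 720 and 1015 against 981 and 1281, with 7 of 8 lower, 4 called and a median log2 fold change of -2.21 (1 of 8 above 0). For 8 arterial markers the summed CPM was 864 and 1246 against 1038 and 1086, with 4 higher and 2 lower. For 20 lung epithelial markers, a tissue that carries Ocln, F11r and Tjp1 as well, it was 575 and 684 against 406 and 643, with 10 of 20 higher and 1 lower and Scgb3a2 alone at 0, in ZsGreen+ replicate 1. For 8 fibroblast markers it was 237 and 435 against 95.2 and 118, with 6 of 8 higher, and for 6 pericyte and smooth muscle markers 26.3 and 43.1 against 28.4 and 33.4. Of the 10 leukocyte markers summed above, 5 were higher and 0 lower without overlap, and edgeR called 0.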

How the data were processed

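Endothelial RNA sorted from mouse lung was amplified over the whole transcriptome from little material before library construction, per the labels' protocols, so counts are not independent molecules. The submitters' processing notes name RSEM 1.3.1, DESeq2 1.4.5 and the builds mm10 and GRCm38 without their roles; the aligner and strand setting were not stated there. The deposited table gives, per the file headers, read counts, which are estimated counts (16.2% to 17.9% of values not whole, rounded for tests), a normalized count signal, FPKM and TPM, all as the authors made them.

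edgeR 4.0.16 (R 4.3.3) compared the groups, taken from sample titles, by a two-sided quasi-likelihood test using TMM factors and filterByExpr (minimum count 10), with Benjamini-Hochberg adjustment over all genes tested. Each SE was derived from the fold change and its F statistic, and 95% intervals use the moderated degrees of freedom. limma 3.58.1 with trend tested log2(TPM + 1) of genes at 1 TPM or more in 2 libraries. Library pairs differed beyond sampling noise, with a chi-square per degree of freedom of 34.4 or more. The tests were tested on simulated data first. Alternatives were other normalization factors, DESeq2 1.42.0, limma-voom, other filters, FPKM and TPM, library sizes leaving out ribosomal protein and haemoglobin genes, a replicate block and leaving out each library.

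The members and lists were chosen with earlier results of these data known. Named are the 9 members and, per further list, called genes and those with the smallest p at a mean of 1 CPM or more, up to 4; Cldn1 falls outside this rule, and 1 gene that it names is not reported here. Of 85 symbols in the 6 further lists 2 claudins are not used here, and Pals1 was matched as Mpp5. Gene spans and promoter windows are from RefSeq (GRCm38.p6), strands and exon overlaps from GENCODE M21.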

Additional observations from a re-analysis of the deposited data

How the results depend on the processing

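The log2 fold changes of Jam2, Cldn5, Cdh5, Esam and Jam3 kept their direction under all 16 alternatives. Pecam1 turned to 0.016 in TPM. With 1 library left out Ocln ranged from -0.12 (without ZsGreen+ replicate 1) to 0.26, F11r from -0.068 (the same library; -0.065 without tdTomato+ replicate 2) to 0.14 and Tjp1 from -0.60 to 0.012 (without ZsGreen+ replicate 2), each turning its sign there; the cause was not tested. The members' median log2 fold change was -0.13 with upper quartile factors, -0.074 in FPKM, -0.026 in TPM and -0.078 with library totals alone, an alternative chosen after seeing the data, and -0.163 to -0.096 with 1 library left out. edgeR called 40 genes, against 330 with DESeq2, which include all 40, 128 without a filter, 61 at 1 CPM in every library, 26 in FPKM, 21 with library totals alone and 4 to 304 with 1 library left out (17 and 4 on leaving out tdTomato+ replicate 1 or 2, 304 and 26 for ZsGreen+ replicate 1 or 2). With 1 library left out of an arm, the lone library is assumed to vary like the other group. The higher share of calls was 55% by edgeR (22 higher, 18 lower), 71% in TPM (22, 9), 71.4% with library totals alone (15, 6), 65.4% in FPKM (17, 9) and 65.6% at 1 CPM in every library (40, 21), 64.8% without a filter (83, 45) and 72.7% with the replicate block (679, 255). With 1 library left out it ran from 0% (0 higher, 4 lower, without tdTomato+ replicate 2) over 38.5% (10, 16, without ZsGreen+ replicate 2) and 64.7% (11, 6, without tdTomato+ replicate 1) to 66.8% (203, 101, without ZsGreen+ replicate 1). DESeq2 called 2 members, 2 catenins and linkers, 2 other cadherins, 1 other membrane protein and 1 regulator. With 1 library left out edgeR called 0 members, 0 to 1 linkers, 0 to 1 cadherins and 0 to 1 regulators, and limma on TPM 0 to 2 members.

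Same-numbered libraries deviated together across genes (Pearson r = 0.455 over 13177 genes, which are not independent), but the labels do not say that a number marks shared mice. With the replicate number as a block edgeR called 934 genes (7.09%) and 2 members (Jam2, adjusted p = 0.00107, and Cldn5, 0.00726), and limma on TPM 2 members beside 6.75% of genes. Under the block edgeR called 2 linkers, 3 cadherins, 2 claudins, 2 other membrane proteins, 1 scaffold and 3 regulators. Jam3 rests on 161 to 243 counts per library.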
